A study of Homo sapiens with 4 samples.

Results

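The 30 genes described here encode proteins of homologous recombination and of the Fanconi anaemia pathway, and they were taken by name from a list put together with earlier results of these data known. All 30 were found among the 58870 genes listed per library, and all 30 passed the filter on low counts that left 16749 genes for testing. They were measured in total RNA from BJ cells, an established line of human foreskin fibroblasts. In 2 libraries the cells had been exposed for 24 hours to 250 nM of a compound abbreviated Dox and then left for 10 days to senesce, and in the other 2 they had been given DMSO, the solvent, over the same schedule. The titles call the Dox cells aged and the DMSO cells young. The cells are 1 line, and nothing in the labels states that libraries of a group came from separate cultures, so every p-value below measures only the spread between these libraries, which may be technical.

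Homologous recombination repairs a broken chromosome by copying an intact sister: the broken ends are trimmed back to single strands, a recombinase is loaded on them, and the coated strand invades the matching duplex. The Fanconi anaemia pathway acts where a replication fork meets strands locked together by a crosslink, and it passes the lesion to recombination by attaching ubiquitin to a pair of clamp proteins. Both act mainly in cells that replicate their DNA, and many of their genes are known to be transcribed most strongly around S phase.

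Of the 30 genes, 12 fell in Dox cells and 1 rose (edgeR's quasi-likelihood test, two-sided, Benjamini-Hochberg adjusted over all tested genes, threshold 0.05), and 17 did not pass. The 12 that fell make 40.0% of the genes, beside 13.8% of all tested genes that fell; 16.5% of all tested genes rose. The median log2 fold change (Dox over DMSO) was -0.45, beside -0.0023 over all tested genes. BARD1, RAD51AP1, XRCC2, UBE2T, EXO1, FANCE and FANCD2 fell the most, MND1 had a fold change in their range but did not pass, and FANCM was the gene that rose. CPM here are counts per 1000000 counts of a library whose size was scaled by edgeR's TMM factors. Over the 30 genes they summed to 128.3 and 123.4 in the Dox libraries, against 158.2 and 161.4 in the DMSO libraries. In 22 genes both Dox libraries lay below both DMSO libraries, beside 34.5% of all tested genes, and in 3 both lay above, beside 34.6%. In bulk RNA, fewer cells that carry a transcript and less of it per cell cannot be told apart.

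The number of falls depended on the libraries used. A fit without 1 library sets 1 library of a group against 2 of the other, takes its spread from those 2 alone and assumes that the lone library varies like them, so a call in it is no measure of stability. It was 20 when Dox replicate 1 was left out, beside 26.7% of all genes tested then, and 17 when Dox replicate 2 was (29.1%). It was 7 when DMSO replicate 1 was left out (6.23%) and 4 when DMSO replicate 2 was (5.73%). Rises numbered 1, 3, 0 and 0 in those 4 fits, beside 26%, 27%, 8.62% and 7.83% of all genes tested, and the fits with 0 rises had 1 each at an unadjusted p under 0.05. On all 4 libraries DESeq2's Wald test gave 6 falls and 1 rise, beside 11% and 13.7%, and edgeR with offsets for GC trends gave 14 and 2, beside 22.3% and 22.8%. Limma on log2(TPM + 1) gave 1 fall and 0 rises, beside 1.18% and 3.56%, and on log2(TPM + 0.1) it gave 0 and 0, beside 1.18% and 3.8%, with 4 falls and 1 rise at an unadjusted p under 0.05 on each of these scales. The 1 fall on log2(TPM + 1) was that of RAD51AP1. Against a threshold of 1.5-fold, edgeR's glmTreat left BARD1 as the 1 fall, beside 2.87%, and 0 rises, beside 4.7%.

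**Figure D1:**
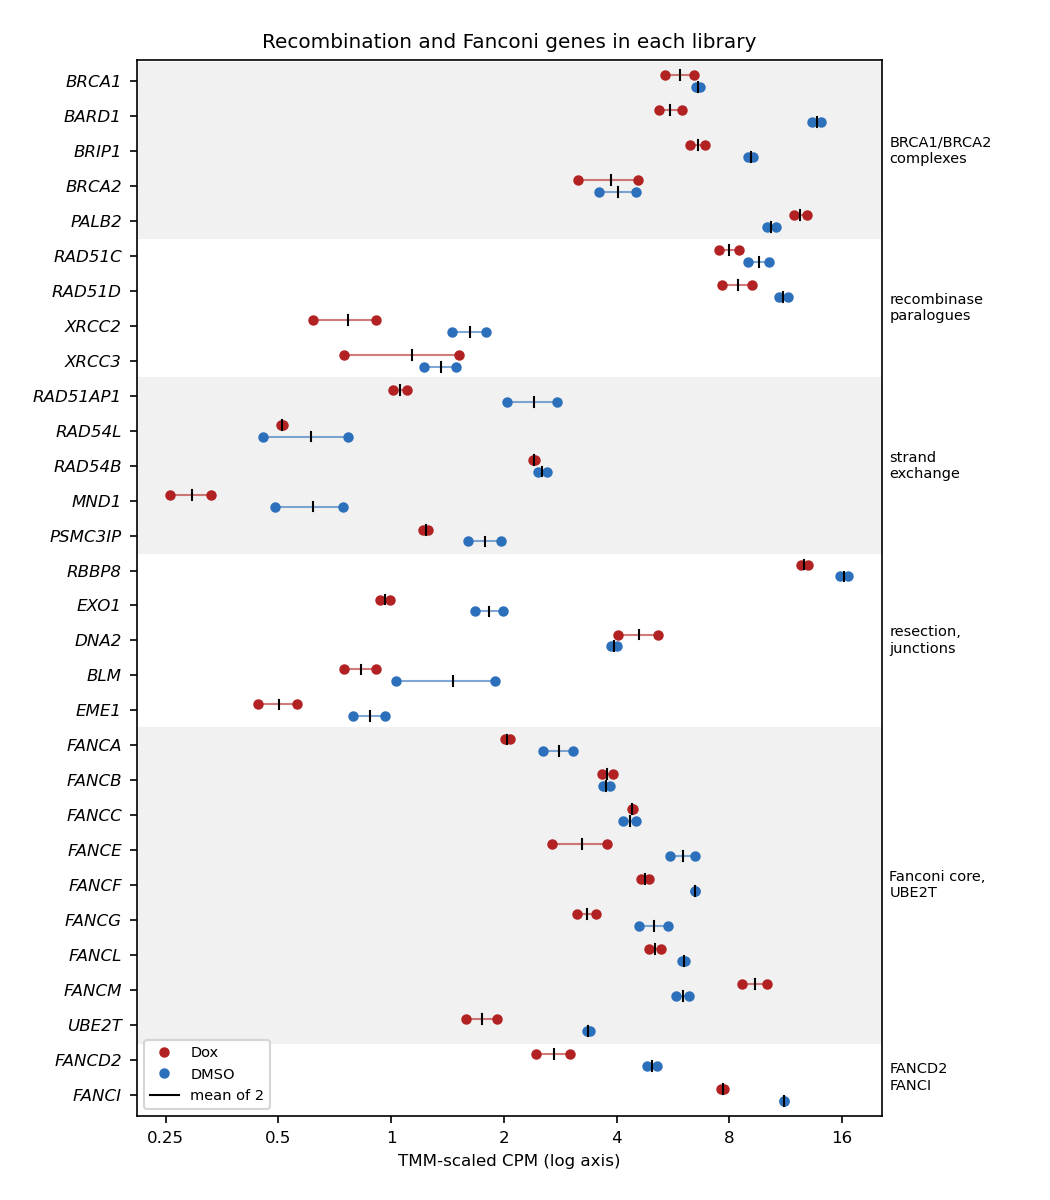
TMM-scaled CPM of each of the 30 genes in the 2 Dox libraries (red) and the 2 DMSO libraries (blue), on a log axis, grouped by role; black ticks are means of 2. The red points of BARD1 (5.18 and 5.96 CPM) lie far left of its blue points (13.3 and 14.1 CPM), while those of FANCM lie right of its blue points.

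**Figure D2:**
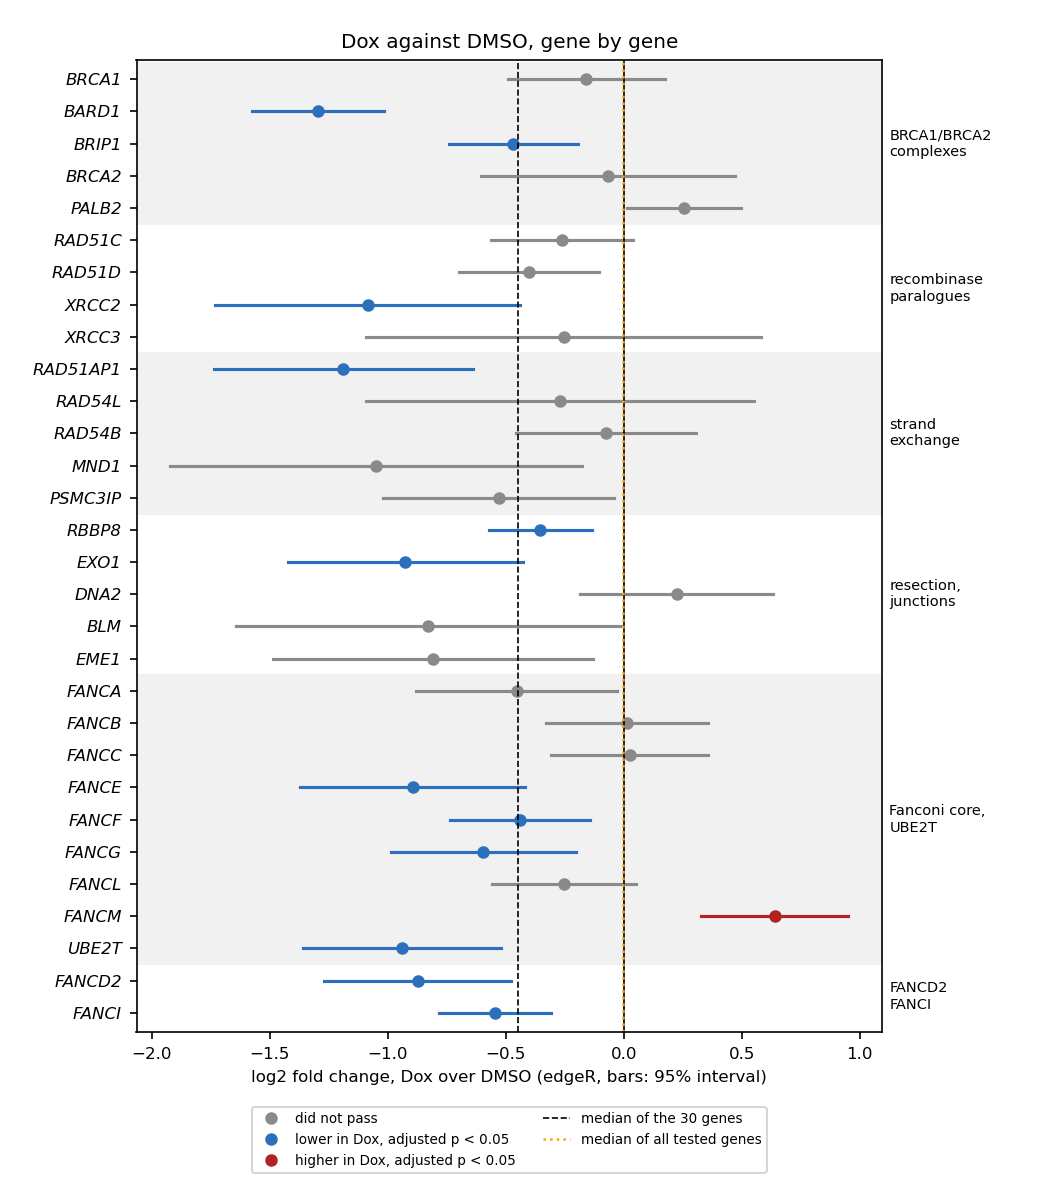
Log2 fold change, Dox over DMSO, of each gene with its 95% interval from edgeR's quasi-likelihood fit; blue fell, red rose and grey did not pass at an adjusted p of 0.05. The dashed line is the median of the 30 genes (-0.45) and the dotted line that of all tested genes, close to 0.

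Promoter letters were read for these genes because many genes of the pathway are known targets of E2F, the factors that switch on S-phase genes. RefSeq (GRCh38.p14) gave windows of 300 bases, 250 before and 50 after a start, for 27 of the 30 genes; RAD54B, DNA2 and FANCI had none in the table used. The E2F letters searched were TTTCCCGC, TTTGGCGC, TTTCGCGC and TTTGCCGC on both strands. They stood in 7 of the 27 genes (25.9%), against 6.45% of the 11005 tested genes with a window. Among the genes with a window that fell, 3 of 11 had them (27.3%), and among those that did not fall, 4 of 16 (25%). The matches are given in stretches of 30 bases, 5′ to 3′ on the gene's strand, with the E2F letters in capitals. EXO1, FANCD2 and XRCC2 fell, and the other 4 genes did not pass.
EXO1: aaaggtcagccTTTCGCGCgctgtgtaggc
FANCD2: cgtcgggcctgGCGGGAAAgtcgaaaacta
XRCC2: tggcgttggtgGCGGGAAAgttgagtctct
MND1: cggcgtagtcgGCGCCAAAatcaaacgcgt
PSMC3IP: tgagttgggtgGCGGGAAAggcgatgagta
FANCA: actacaccgcgGCGGCAAAgccaaacgcaa
FANCC: ccggggcttccGCGCGAAAccgggaacact
FANCC: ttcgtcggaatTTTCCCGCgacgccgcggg
The EXO1 stretch lies at chr1:241848197-241848226 on the plus strand, that of FANCD2 at chr3:10026424-10026453 on the plus strand, and that of XRCC2 at chr7:152676102-152676131 on the minus strand. MND1's lies at chr4:153344643-153344672 on the plus strand, PSMC3IP's at chr17:42577680-42577709 and FANCA's at chr16:89816801-89816830, both on the minus strand. FANCC held matches at chr9:95317863-95317892 and chr9:95317737-95317766 on the minus strand. The CCAAT box, searched as CCAAT and ATTGG, stood in 12 of 27 genes (44.4%), against 43.2% of tested genes with a window. The cell cycle homology element, searched as TTTGAA and TTCGAA on both strands, stood in 3 of 27 (11.1%), against 15.9%.

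For BARD1, which fell the most, UBE2T, which fell and like BRIP1 has both kinds of letters, and FANCM, which rose, a stretch of 100 bases before a RefSeq start is shown, with CCAAT boxes and cell cycle homology letters in capitals. The stretches are not matched: those of BARD1 and FANCM run from base -100 to -1, and that of UBE2T from -160 to -61. BARD1's stretch, at chr2:214809684-214809783 on the minus strand, held none of the letters searched. UBE2T's, at chr1:202341997-202342096 on the minus strand, held CCAAT and TTTGAA, and FANCM's, at chr14:45135830-45135929 on the plus strand, held CCAAT.
BARD1: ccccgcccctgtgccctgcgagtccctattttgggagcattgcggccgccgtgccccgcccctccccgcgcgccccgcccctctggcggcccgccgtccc
UBE2T: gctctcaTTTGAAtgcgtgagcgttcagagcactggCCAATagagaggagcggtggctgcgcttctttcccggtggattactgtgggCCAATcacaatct
FANCM: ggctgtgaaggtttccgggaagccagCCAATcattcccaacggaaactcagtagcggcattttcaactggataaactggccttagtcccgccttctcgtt

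Of the 5 listed genes of the BRCA1 and BRCA2 complexes, 2 fell (40%, beside 13.8% of all tested genes) and the other 3 did not pass. BARD1, the partner that BRCA1 needs for stability and for its ubiquitin ligase activity, had 255 and 235 counts in the Dox libraries, against 555 and 659 in the DMSO libraries. The groups lay far apart, and its mean was 5.57 ± 0.55 CPM in Dox cells and 13.7 ± 0.54 CPM in DMSO cells (SD, n = 2 each). BARD1 (ENSG00000138376, chr2:214725646-214809711, minus strand) fell by 1.30 on the log2 scale (SE 0.12, edgeR adjusted p = 0.000743), a change of -59.3%. It passed in 14 of the 16 alternative analyses, the exceptions being limma on log2(TPM + 1) and log2(TPM + 0.1), and its adjusted p ran up to 0.131. The alternatives include the fits without 1 library, where a call is no measure of stability. BRCA1 itself, which helps to start and steer the trimming of ends, had 276 and 244 counts in the Dox libraries, against 272 and 313 in the DMSO libraries. Its log2 fold change of -0.16 did not pass (95% interval -0.49 to 0.18, edgeR adjusted p = 0.426). There were 0.924 and 0.963 BARD1 counts per BRCA1 count in the Dox libraries, against 2.04 and 2.11 in the DMSO libraries, a ratio within each library that no scaling touches. The difference between the genes' fold changes was not tested.

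BRIP1, a helicase that binds BRCA1, fell by 0.47 on the log2 scale (SE 0.11, edgeR adjusted p = 0.025), with 6.90 and 6.28 CPM in the Dox libraries, against 9.27 and 8.96 CPM in the DMSO libraries. It did not pass without DMSO replicate 1 (edgeR adjusted p = 0.213), without DMSO replicate 2 (0.173) or by DESeq2 (0.059), over a range of 1.08e-06 to 1 across the alternatives. BRCA2, which loads the recombinase on single strands, had 195 and 143 counts in the Dox libraries, against 188 and 168 in the DMSO libraries. These overlapped, and its log2 fold change of -0.07 had a 95% interval of -0.61 to 0.47. PALB2, which joins BRCA1 to BRCA2, had 12.9 and 11.9 CPM in the Dox libraries, against 10.6 and 10.1 CPM in the DMSO libraries. Both Dox values were the higher ones, and the log2 fold change of 0.26 did not pass (SE 0.10, edgeR adjusted p = 0.1003).

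Of the 4 listed paralogues that assist the recombinase, XRCC2 fell (25%, beside 13.8% of all tested genes) and RAD51C, RAD51D and XRCC3 did not pass. Another paralogue, RAD51B, was counted among the further genes below. Its log2 fold change of -0.02 did not pass (SE 0.16, edgeR adjusted p = 0.936). XRCC2, a subunit of the complex that also holds RAD51C and RAD51D, had 39 and 28 counts in the Dox libraries, against 75 and 68 in the DMSO libraries. Every Dox count was below every DMSO count, and it fell by 1.09 on the log2 scale (SE 0.27, edgeR adjusted p = 0.0265), with loss of the call without DMSO replicate 1 (0.104), by DESeq2 (0.0658) and with sample quality weights (0.0556; range over the alternatives 2.7e-05 to 0.626). RAD51D, in the same complex, had 7.67 and 9.19 CPM in the Dox libraries, against 11.5 and 10.8 CPM in the DMSO libraries. Its groups did not overlap, yet its log2 fold change of -0.40 lay just outside the threshold (SE 0.12, edgeR adjusted p = 0.0506). RAD51C, which sits in both paralogue complexes, had a log2 fold change of -0.26 (95% interval -0.56 to 0.04). XRCC3, its partner in the smaller complex, had 32 and 69 counts in the Dox libraries, against 51 and 70 in the DMSO libraries. The Dox libraries differed from each other by more than the groups did, and the log2 fold change of -0.26 had a 95% interval of -1.09 to 0.58. XRCC3 overlaps KLC1 on the opposite strand over 16641 bases, and KLC1 had 5668 and 7079 counts in the Dox libraries, against 6084 and 7089 in the DMSO libraries. Whether counting used strand is not given in the sources used here, so reads of such pairs cannot be told apart.

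Of the 5 listed genes that help strand exchange, RAD51AP1 fell (20%, beside 13.8% of all tested genes) and the other 4 did not pass. RAD51AP1, which helps the recombinase pair a strand with its target, had 47 and 46 counts in the Dox libraries, against 85 and 130 in the DMSO libraries. The groups did not overlap, although the DMSO libraries stood apart from each other. RAD51AP1 fell by 1.19 on the log2 scale (SE 0.23, edgeR adjusted p = 0.011), and it did not pass without DMSO replicate 2 (0.0569; range over the alternatives 1.46e-06 to 0.129). MND1, known mainly for its part in meiotic pairing, had 11 and 15 counts in the Dox libraries, against 31 and 23 in the DMSO libraries. Its log2 fold change of -1.05 was about as large as that of RAD51AP1, but the counts were few and it did not pass (SE 0.36, edgeR adjusted p = 0.0721). PSMC3IP, which forms a dimer with MND1, had a log2 fold change of -0.53 (edgeR adjusted p = 0.0961), with 52 and 57 counts in the Dox libraries, against 67 and 92 in the DMSO libraries. The motors RAD54L and RAD54B, which move the recombinase along DNA, had log2 fold changes of -0.27 (95% interval -1.09 to 0.55) and -0.08 (95% interval -0.46 to 0.30). RAD54L had only 22 and 23 counts in the Dox libraries, against 19 and 36 in the DMSO libraries, and the expected counts of RAD54B, which overlaps FSBP, were not whole numbers in any of the 4 libraries. RAD54L overlaps LRRC41 on the opposite strand over 17278 bases. LRRC41 had 2778 and 3320 counts in the Dox libraries, against 2767 and 3042 in the DMSO libraries.

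Of the 5 listed genes of end trimming and the processing of joined molecules, 2 fell (40%, beside 13.8% of all tested genes). Others of these steps were counted among the further genes below. There MUS81 fell, RAD50 rose, and MRE11, NBN, GEN1, SLX4, SLX1A, TOP3A, RMI1, RMI2 and WRN did not pass. EXO1, a nuclease that extends the trimming, had 40 and 45 counts in the Dox libraries, against 70 and 93 in the DMSO libraries. These did not overlap, and EXO1 fell by 0.93 on the log2 scale (SE 0.21, edgeR adjusted p = 0.0188), a call absent without DMSO replicate 2 (0.141), by DESeq2 (0.0852) and with sample quality weights (0.0571; range over the alternatives 0.00121 to 0.404). RBBP8, also called CtIP, which starts the trimming, had 531 and 587 counts in the Dox libraries, against 693 and 741 in the DMSO libraries, where it was the most counted of the 30 genes. RBBP8 fell by 0.35 on the log2 scale (SE 0.09, edgeR adjusted p = 0.0295), and it did not pass without DMSO replicate 1 (0.314), without DMSO replicate 2 (0.219), by DESeq2 (0.0785) or with library totals alone (0.07; range over the alternatives 3.5e-06 to 1). DNA2, the nuclease and helicase that extends the trimming in parallel with EXO1, had a log2 fold change of 0.22 (95% interval -0.18 to 0.63). Its level was 5.17 and 4.03 CPM in the Dox libraries, against 3.86 and 4.01 CPM in the DMSO libraries, so that Dox replicate 2 lay beside the DMSO libraries. BLM, the helicase that unwinds joined molecules, had 39 and 34 counts in the Dox libraries, against 43 and 89 in the DMSO libraries, and its log2 fold change of -0.83 did not pass (SE 0.34, edgeR adjusted p = 0.114). EME1, the partner of the nuclease MUS81, had 24 and 20 counts in the Dox libraries, against 33 and 45 in the DMSO libraries, and a log2 fold change of -0.81 (edgeR adjusted p = 0.0738). EME1 overlaps LRRC59 on the opposite strand over 6425 bases. LRRC59 had 5792 and 6708 counts in the Dox libraries, against 5763 and 6461 in the DMSO libraries.

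The 9 listed genes of the Fanconi core complex and its enzymes held 4 falls and the 1 rise. These make 44.4% and 11.1%, beside 13.8% and 16.5% of all tested genes. The 9 are not the whole complex. Its other subunits and partners FAAP100, FAAP20, FAAP24, CENPS and CENPX, counted among the further genes below, did not pass. UBE2T, the ubiquitin-conjugating enzyme that works with the core complex, had 82 and 72 counts in the Dox libraries, against 139 and 159 in the DMSO libraries. The groups lay apart by more than the spread within either, and UBE2T (ENSG00000077152, chr1:202331657-202341980, minus strand) fell by 0.94 on the log2 scale (SE 0.17, edgeR adjusted p = 0.00973). FANCL, the ligase that UBE2T works with, had a log2 fold change of -0.25 that did not pass (95% interval -0.56 to 0.05). FANCE, which binds the clamp protein FANCD2, had 115 and 171 counts in the Dox libraries, against 232 and 303 in the DMSO libraries. It fell by 0.89 on the log2 scale (SE 0.20, edgeR adjusted p = 0.0181), and it did not pass without DMSO replicate 2 (0.0626; range over the alternatives 1.13e-13 to 0.675). FANCF and FANCG, scaffold subunits of the complex, fell by 0.44 (edgeR adjusted p = 0.0398) and by 0.60 (edgeR adjusted p = 0.0361). Neither passed without DMSO replicate 1 or DMSO replicate 2, at adjusted p-values of 0.257 and 0.282 for FANCF and 0.0648 and 0.297 for FANCG (ranges over the alternatives 0.000518 to 1 for FANCF and 2.63e-05 to 1 for FANCG). Nor did they pass by DESeq2 (0.133 for FANCF and 0.0702 for FANCG), with sample quality weights (0.0613 and 0.0681) or with library totals alone (0.0761 and 0.0688). FANCA, another scaffold subunit, had 86 and 94 counts in the Dox libraries, against 128 and 119 in the DMSO libraries, and a log2 fold change of -0.45 (edgeR adjusted p = 0.101). FANCB and FANCC had log2 fold changes of 0.01 and 0.02, with 95% intervals of -0.33 to 0.36 for FANCB and -0.31 to 0.36 for FANCC.

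FANCM, the DNA translocase that anchors the core complex at blocked forks, had 431 and 392 counts in the Dox libraries, against 241 and 292 in the DMSO libraries. Both Dox libraries were above both DMSO libraries, at 9.36 ± 1.02 CPM in Dox cells and 6.001 ± 0.32 CPM in DMSO cells (SD, n = 2 each). FANCM (ENSG00000187790, chr14:45135940-45200890, plus strand) rose by 0.64 on the log2 scale (SE 0.13, edgeR adjusted p = 0.0131), or by 55.8%. It passed in 11 of the 16 alternatives, which include the fits without 1 library, where a call is no measure of stability. It did not pass without DMSO replicate 1 (edgeR adjusted p = 0.108), without DMSO replicate 2 (0.0573), on either TPM scale, or against a threshold of 1.5-fold, over a range of 9.48e-12 to 0.759.

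Transcripts of both clamp proteins, which the core complex marks with ubiquitin, fell. FANCD2 (ENSG00000144554, chr3:10026414-10101930, plus strand) had 104 and 136 counts in the Dox libraries, against 201 and 241 in the DMSO libraries, and it fell by 0.87 on the log2 scale (SE 0.16, edgeR adjusted p = 0.0104). FANCI, its partner in the clamp, had 332 and 344 counts in the Dox libraries, against 466 and 526 in the DMSO libraries, and fell by 0.54 (SE 0.10, edgeR adjusted p = 0.00908). The values of each gene were well apart between the groups. The call for FANCI was absent without DMSO replicate 1 (0.0869) or DMSO replicate 2 (0.0999; range over the alternatives 9.44e-09 to 1). FANCI overlaps POLG on the opposite strand over 12064 bases, and POLG had a log2 fold change of -0.28 that did not pass. There were 0.313 and 0.395 FANCD2 counts per FANCI count in the Dox libraries, against 0.431 and 0.458 in the DMSO libraries.

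**Figure D3:**
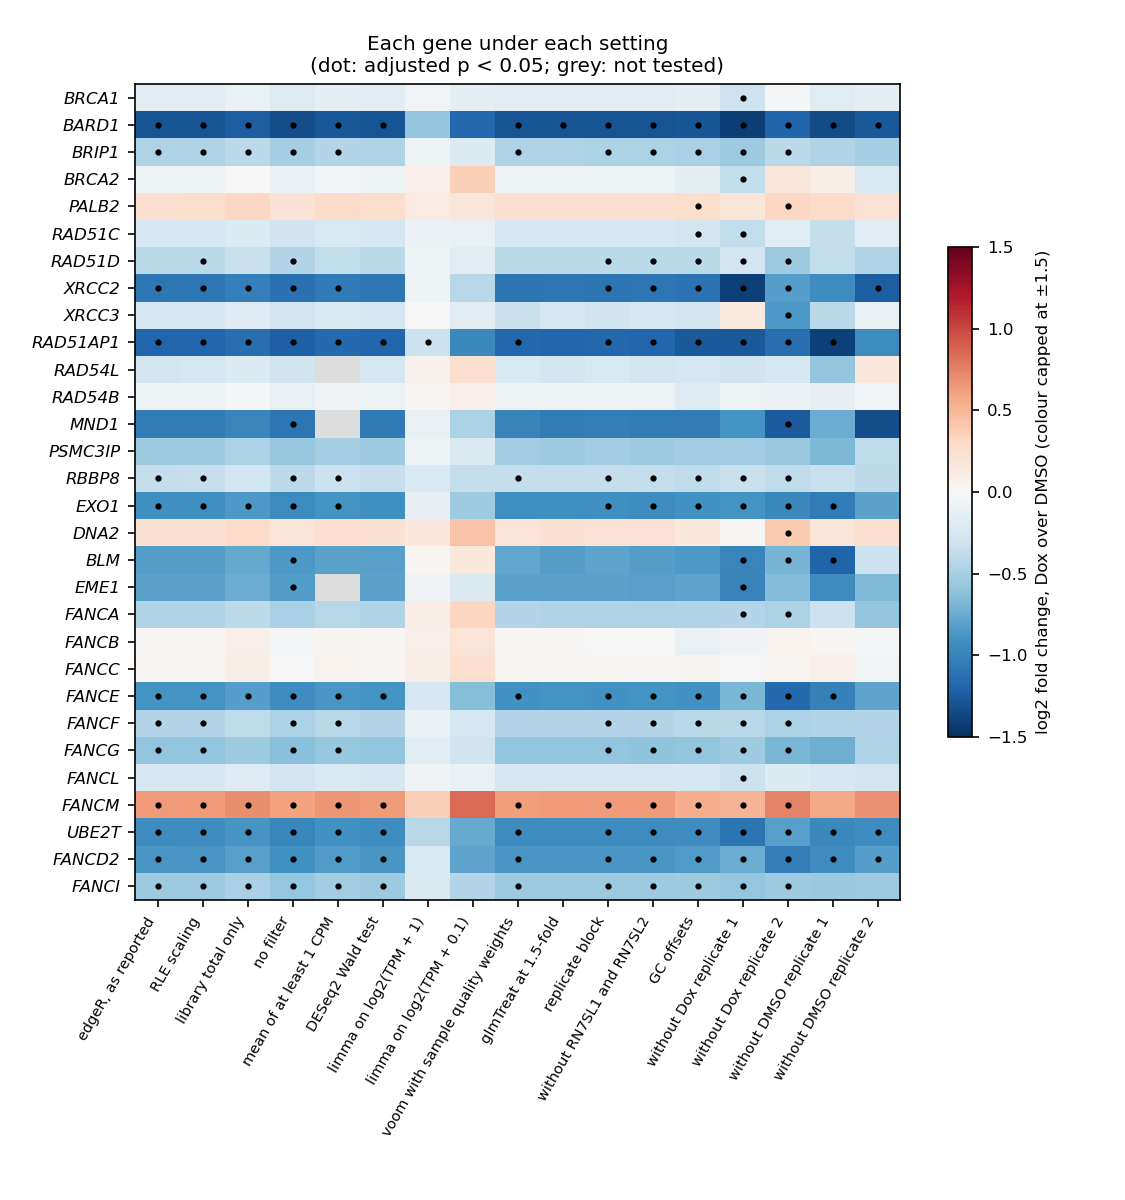
Log2 fold change, Dox over DMSO, of each gene (rows) under the analysis as reported and the 16 alternatives (columns), as colour; a dot marks an adjusted p under 0.05 and grey a gene that was not tested. BARD1 is the darkest row with the most dots (14 of the 16 alternatives), and the columns without a DMSO library have fewer dots (7 and 4 falls) than the first column (12 falls).

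Per length of transcript, these were genes of low level. In TPM, which scales reads by transcript length and each library to a total of 1000000, 25 of the 30 lay under 1 in Dox cells and 23 in DMSO cells, and the median over the 30 was 0.463 TPM in Dox cells and 0.431 TPM in DMSO cells, beside 1.60 TPM in Dox cells and 1.40 TPM in DMSO cells over all tested genes. RAD51C had the highest level, with 2.87 and 3.92 TPM in the Dox libraries, against 3.33 and 3.95 TPM in the DMSO libraries. RBBP8 came next, with 1.19 and 2.14 TPM in the Dox libraries, against 2.31 and 1.86 TPM in the DMSO libraries, so that its groups overlapped on this scale. The lowest level was that of XRCC2 in Dox cells (0.0492 and 0.0535 TPM) and that of BLM in DMSO cells (0.0572 and 0.121 TPM). FANCM held place 7 in Dox cells and place 18 in DMSO cells, while BARD1 held place 13 in Dox cells and place 7 in DMSO cells. The TPM scale did not treat the libraries alike. The small RNAs RN7SL1 and RN7SL2 took 33.0% and 42.3% of TPM in the Dox libraries, against 43.9% and 43.8% in the DMSO libraries, and the 30 genes summed to 14.7 and 22.5 TPM in the Dox libraries, against 21.0 and 21.9 TPM in the DMSO libraries. Dox replicate 1 was the low one in both. By counts these small RNAs took 14.71% and 12.61% in the Dox libraries, against 17.55% and 17.35% in the DMSO libraries. What lowered the sum in Dox replicate 1 was not tested.

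The transcript length that RSEM assigned to a gene, an average over the isoforms it gave reads to, differed by more than 10% between the group means in 12 of the 30 genes. The share over all tested genes was not computed, so this count cannot be read as particular to the 30. For BLM it was 2068 and 3235 bases in the Dox libraries, against 5240 and 4703 bases in the DMSO libraries. FANCA had 1803 and 2162 bases in the Dox libraries, against 3339 and 2848 bases in the DMSO libraries. BRCA2 had 5438 and 8978 bases in the Dox libraries, against 9438 and 11230 bases in the DMSO libraries. Each of these genes had shorter assigned transcripts in each Dox library, and for each the log2 fold change turned positive on the TPM scale. FANCD2 went the other way, with 4730 and 4643 bases in the Dox libraries, against 3019 and 4534 bases in the DMSO libraries. With so few reads per gene, the assignment to isoforms was not tested.

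The Dox libraries differed from each other along the GC content of transcripts. Over all tested genes the log2 ratio of Dox replicate 1 over Dox replicate 2 had a Spearman correlation with GC content of -0.58, and -0.015 in the DMSO pair; this is across genes that share 2 libraries, and no test was made. Over the 30 genes it was -0.54 in the Dox pair and -0.23 in the DMSO pair. Their median GC content was 43.5%, beside 49.2% for all tested genes. XRCC3, at 59.7% GC, had the most negative log2 ratio of Dox replicate 1 over Dox replicate 2 (-1.01), and XRCC2, at 41.2% GC, the most positive (0.55). FANCE and FANCG, which fell, had 58.4% and 55.8% GC, and both were lower in Dox replicate 1 than in Dox replicate 2, and in each Dox library than in either DMSO library. All 12 falls and the rise of FANCM were among the calls made with offsets for GC trends. So were 2300 of the 2309 falls and 2755 of the 2764 rises over all tested genes. Keeping a call in that fit is therefore not particular to the 30 genes.

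**Figure D4:**
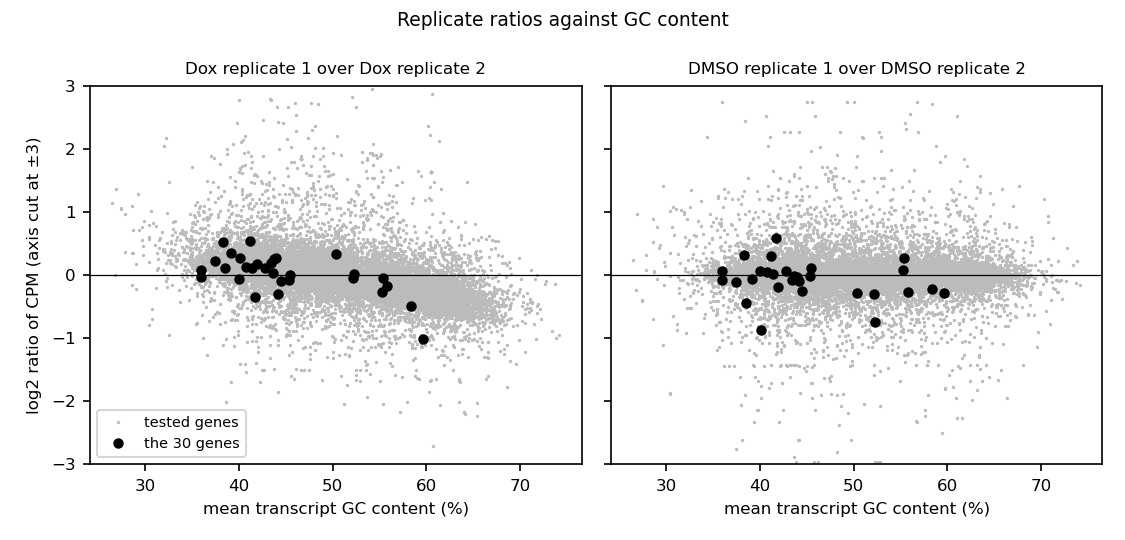
Log2 ratio of CPM between the 2 Dox libraries (left) and between the 2 DMSO libraries (right) against mean transcript GC content, for all tested genes (grey) and the 30 genes (black); the axis is cut at ±3. The left cloud slopes down (Spearman correlation -0.58) and the right one is flat (-0.015).

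Head-to-head neighbours, whose start lies within 1000 bases and which point away, give a view of what moved around the same stretch of DNA. Of the 30 genes, 13 had a neighbour of this kind and 8 had one that was tested. FANCD2 starts 49 bases from the pseudogene CIDECP1, whose log2 fold change was -0.25 (SE 0.14) and did not pass. RAD51AP1 starts 290 bases from C12orf4 (-0.21, SE 0.11), and FANCM 621 bases from FKBP3 (-0.10, SE 0.10), and neither neighbour passed. FKBP3 had 1280 and 1156 counts in the Dox libraries, against 1222 and 1407 in the DMSO libraries. PALB2 starts 82 bases from DCTN5, which rose by 0.29 (SE 0.07, edgeR adjusted p = 0.0263) beside the 0.26 of PALB2 that did not pass. ZFYVE21, 226 bases from XRCC3, fell by 0.36 (SE 0.08, edgeR adjusted p = 0.0186). NBR1 beside BRCA1 (0.04), MRPL27 beside EME1 (-0.25) and MOSPD2 beside FANCB (0.34) did not pass. NBR1 was paired through the outermost annotated start of BRCA1 (chr17:43170245), whereas a RefSeq promoter window of BRCA1 begins at chr17:43125315. NBR1 is therefore no neighbour of that promoter. NBR2, annotated as a bidirectional promoter RNA, overlaps BRCA1 on the opposite strand, and its log2 fold change of -0.13 did not pass. The difference between a gene and its neighbour was not tested.

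**Figure D5:**
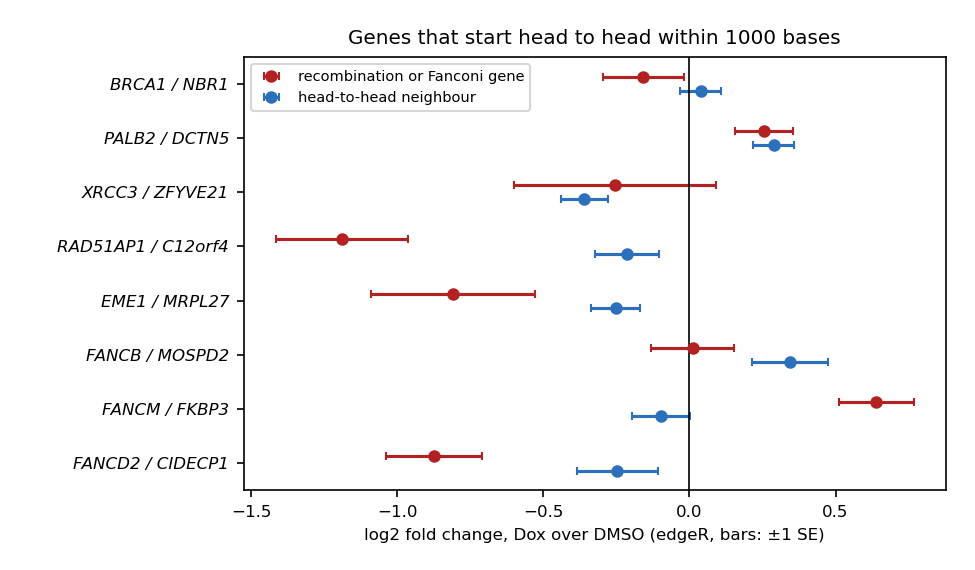
Log2 fold change, Dox over DMSO, of 8 recombination or Fanconi genes (red) and of the tested gene that starts head to head with each (blue), with bars of 1 SE from edgeR's quasi-likelihood fit. FANCM (0.64) and its neighbour FKBP3 (-0.10) lie on opposite sides of 0, and PALB2 and DCTN5 lie side by side.

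A further 52 genes of recombination and the Fanconi pathway outside the 30 held 8 falls (15.4%, beside 13.8% of all tested genes) and 1 rise (1.92%, beside 16.5%), with a median log2 fold change of -0.10. The share that fell was near that of all tested genes. USP1, which takes ubiquitin off the FANCD2-FANCI clamp, fell by 0.63 (SE 0.08, edgeR adjusted p = 0.00233), with 21.6 and 22.2 CPM in the Dox libraries, against 33.6 and 33.9 CPM in the DMSO libraries. UHRF1, known for its part in maintaining DNA methylation, fell by 0.69 (SE 0.10, edgeR adjusted p = 0.00475). RAD50, a subunit of the complex that senses broken ends, rose by 0.60 (SE 0.11, edgeR adjusted p = 0.00875), with 66.8 and 54.6 CPM in the Dox libraries, against 39.4 and 40.6 CPM in the DMSO libraries. Of 22 end joining genes, 3 fell (13.6%, also near the 13.8% of all tested genes), among them XRCC4 (by 0.65) and SHLD2 (by 0.34), with a median of -0.10. In edgeR's test 0 end joining genes rose, beside 1 at an unadjusted p under 0.05 and 0 by DESeq2. These counts moved with the libraries: falls numbered 20 of the further and 8 of the end joining genes when Dox replicate 1 was left out (26.7% of all genes tested then), 19 and 10 when Dox replicate 2 was (29.1%), 2 and 1 when DMSO replicate 1 was (6.23%), and 2 and 0 when DMSO replicate 2 was (5.73%; 1 end joining gene at an unadjusted p under 0.05). The 3 lists were not tested against each other.

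Genes of proliferation moved with these genes. Of 27 proliferation markers 22 fell (81.5%, beside 13.8% of all tested genes) and 2 rose (7.41%, beside 16.5%), with a median log2 fold change of -1.01. Their CPM summed to 179.7 and 185.0 in the Dox libraries, against 297.5 and 298.9 in the DMSO libraries. TOP2A, which untangles DNA in dividing cells, fell by 1.40 (SE 0.08, edgeR adjusted p = 0.000198), and CDK1, the kinase of mitotic entry, by 1.86 (SE 0.13, edgeR adjusted p = 0.00035). PCNA, the sliding clamp of replication, rose by 0.40 (SE 0.09, edgeR adjusted p = 0.0176) and CCNE1, a cyclin of S-phase entry, by 0.62 (SE 0.17, edgeR adjusted p = 0.0383). Neither of these rises passed without DMSO replicate 1 or DMSO replicate 2. The part of proliferation in the falls of the recombination and Fanconi genes was not tested.

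The 4 libraries held 42880682 and 43429426 expected counts with Dox, against 42744729 and 47798920 with DMSO. The first principal component held 76.8% of the variance. For the marker counts that follow, 16.5% of all tested genes rose and 13.8% fell. All 10 fibroblast markers were tested and present, with 4 that rose and 3 that fell. Of 6 leukocyte markers, CD68 and PTPRC rose, by 2.11 and 3.11 on the log2 scale, CD3E was at 0 in each library, and the list summed to 26.5 and 28.7 CPM in the Dox libraries, against 6.52 and 6.16 CPM in the DMSO libraries. Of 7 keratinocyte markers, KRT1 and KRT5 were at 0 in each library, 3 were tested and DSG3 rose, with sums of 13.6 and 12.01 CPM in the Dox libraries, against 10.3 and 10.2 CPM in the DMSO libraries. Of 6 smooth muscle and pericyte markers 5 fell, with sums of 281.9 and 322.1 CPM in the Dox libraries, against 1001 and 1010 CPM in the DMSO libraries. Of 5 endothelial and 5 melanocyte markers 2 each were tested and did not pass; the sums were 3.601 and 4.03 CPM in the Dox libraries, against 3.98 and 4.76 CPM in the DMSO libraries, for endothelial, and 33.7 and 30.4 CPM in the Dox libraries, against 29.04 and 30.3 CPM in the DMSO libraries, for melanocyte markers. Their part in the results above was not tested.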

How the data were processed

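RNA-seq libraries from BJ fibroblasts, 2 Dox and 2 DMSO, were grouped by their titles. The tools cutadapt, RSEM, STAR and Picard and the hg38 build come from the submitters' processing notes; the sources used here give no versions, annotation release or strand setting. The series design places the exposure before the days of senescence; the samples' protocol can be read in the other order. The deposited expected counts, named so per the file headers, are estimated reads per gene and were rounded to whole numbers. The deposited TPM values, named so per the file headers, correct for transcript length and share a common total across libraries; they were recomputed from expected counts and effective lengths for levels, because the deposited ones have few decimals, and used as deposited in the limma alternatives. Deposited FPKM values were not used. GENCODE 29 (GRCh38), which held 99.5% of the files' Ensembl identifiers, gave coordinates (1-based) and GC content.

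Genes were kept by filterByExpr (minimum count 10, minimum total 15), scaled by TMM and tested with edgeR 4.0.16 (glmQLFit and glmQLFTest, two-sided), with group as the only term and Benjamini-Hochberg adjustment over all 16749 genes. An SE is the log2 fold change divided by the square root of F. Scripts ran in Python 3.11.15 and in R 4.3.3 with DESeq2 1.42.0 and limma 3.58.1. The 16 alternatives were other scalings, filters, tests and pseudocounts, GC offsets, the replicate block and leaving out each library. Named genes were all 30, the tested head-to-head neighbours, and from 3 further lists the 2 with the smallest adjusted p in each direction with a call. Marker, overlapping and RN7SL genes were named as context, as were further genes of the same complexes or steps as the 30. The 30 genes and the lists were chosen with earlier results of these data known, and the ratios between partner genes after their values were seen. HROB was matched as C17orf53.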

Additional observations from a re-analysis of the deposited data

How the results depend on the processing

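Over the recombination and Fanconi genes, the 12 falls and 1 rise became 6 and 1 by DESeq2, 1 and 0 by limma on log2(TPM + 1), 0 and 0 on log2(TPM + 0.1) (4 falls and 1 rise at an unadjusted p under 0.05 on either scale), 1 and 0 against a 1.5-fold threshold and 14 and 2 with GC offsets; with 1 library left out they ran over 4 to 20 falls and 0 to 3 rises. Their median log2 fold change of -0.45 became -0.38 with library totals alone, -0.068 on log2(TPM + 1) and -0.19 on log2(TPM + 0.1), where the median of all tested genes was 0.13; without a filter that median was 0.12. Over all tested genes, 2309 fell and 2764 rose; these were 198 and 596 on log2(TPM + 1), 198 and 637 on log2(TPM + 0.1) and 480 and 787 against 1.5-fold, 3735 fell with GC offsets, and with a library left out 1000 to 5017 fell and 1368 to 4654 rose. The cause of these changes was not tested.

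Of the 52 further genes, 8 fell and 1 rose; falls were 2 with library totals alone, 5 at a mean of at least 1 CPM, 3 by DESeq2, 5 with sample quality weights, 14 with GC offsets, 2 to 20 with a library left out, and 0 on both TPM scales and against 1.5-fold. Rises were 3 without a filter, 2 with sample quality weights, 4 with GC offsets, 1 to 6 with a library left out, and 0 on both TPM scales and against 1.5-fold. Of the 22 end joining genes, falls were 3, then 1 with library totals alone, 5 without a filter, 0 on both TPM scales and against 1.5-fold and 0 to 10 with a library left out; 2 rose with GC offsets and 0 to 3 with a library left out. Of the proliferation markers, 3 fell on either TPM scale and 10 against 1.5-fold, beside 22, and 1 rose by DESeq2, 0 on both TPM scales, against 1.5-fold or without a DMSO library, beside 2. No gene of the 52 or the 22 had a fall at an unadjusted p under 0.05 on these TPM scales or against 1.5-fold. Over all 16749 tested genes, falls were 1668 with library totals alone, 1847 by DESeq2 and 2202 with sample quality weights. Sample quality weights gave 2856 rises. With GC offsets 3812 of 16717 genes rose (22.8%), and the 4 rises of 52 and 2 of 22 lay under that share. At a mean of at least 1 CPM, 1951 of 13411 genes fell. Without a filter, 3058 of 31057 genes fell and 3351 rose.

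Signs turned only in genes that did not pass in the analysis as reported. On log2(TPM + 1) and log2(TPM + 0.1) in turn, the log2 fold changes were 0.075 and 0.35 for BRCA2, 0.061 and 0.24 for RAD54L, 0.029 and 0.071 for RAD54B, 0.027 and 0.16 for BLM, 0.10 and 0.32 for FANCA, 0.093 and 0.12 for C12orf4, and 0.054 and 0.059 for FKBP3. Without a filter, FANCB gave -0.022 and FANCC -0.01, and with GC offsets FANCB gave -0.11. With a library left out, log2 fold changes ran over -0.37 to 0.18 for BRCA2, -0.86 to 0.15 for XRCC3, -0.60 to 0.16 for RAD54L, -0.047 to 0.058 for FANCB, -0.039 to 0.071 for FANCC and -0.23 to 0.012 for FKBP3. With the replicate block, 13 of the 30 genes fell and 1 rose, RAD51D being added to the 12, and 2 of the 52 further genes rose. Of all 16749 tested genes, 2511 fell and 2972 rose with the block. The replicate numbers share only a number: with 2 pairs, the correlation of deviations between same-numbered libraries was 0.0383. Counts of the 30 genes ran over 11 to 550 and 15 to 587 in the Dox libraries, against 19 to 693 and 23 to 741 in the DMSO libraries, which limits what a test of 2 against 2 can show for the lowest of them.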
